A study of Bos taurus with 30 samples.

Results

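Osmotic stress genes and aquaporins were followed in bovine endometrial cells, with 50 mM glucose read as a possible osmotic load. The set was a list of 9 gene symbols, namely NFAT5, SLC5A3, SLC6A6, SLC6A12, SLC38A2, SORD, AQP1, AQP3 and AQP5, and a gene entered when its symbol was paired with an Ensembl identifier in the authors' tables. Of the 9 genes, 7 were found among 27607 genes in the count tables, of which 14951 carried a symbol. SLC5A3, the carrier of myo-inositol, and AQP3, a channel for water and glycerol, matched no identifier in this way and were not analysed here. The 7 genes were NFAT5 (ENSBTAG00000013412), SLC6A6 (ENSBTAG00000011088), SLC6A12 (ENSBTAG00000038415), SLC38A2 (ENSBTAG00000011105), SORD (ENSBTAG00000025496), AQP1 (ENSBTAG00000000745) and AQP5 (ENSBTAG00000026813).

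A cell placed in a medium with more solute loses water, first takes up ions and then replaces them with small organic osmolytes that do not disturb proteins. The transcription factor NFAT5 drives this later step by raising the genes for osmolyte carriers, such as the taurine carrier SLC6A6 and the betaine carrier SLC6A12, and for aldose reductase, which turns glucose into sorbitol. Aquaporins are channels through which water crosses cell membranes, and in the uterus they take part in setting the volume of the luminal fluid.

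Primary epithelial and stromal cells were isolated from early luteal uteri of cows that were not pregnant and were cultured on either side of a porous membrane, with epithelial cells in the upper and stromal cells in the lower chamber. In the glucose experiment medium with 5 mM or 50 mM glucose flowed for 72 hours, and in the insulin experiment medium with a physiological glucose concentration carried vehicle (acidified saline), 1 ng/mL or 10 ng/mL insulin for the same time. Each of the 10 groups of cell type and treatment held 3 libraries described as biological replicates, 30 in all, and the sources used here do not say how many cows a replicate came from. The cells were enriched primary cultures and not pure populations, and no group received 50 mM of another solute, so glucose as a nutrient and glucose as a solute cannot be told apart.

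The 12 libraries of the glucose experiment held 13493503 to 16647701 counted reads and the 18 libraries of the insulin experiment 8826470 to 13214728. Levels are given as CPM, the counts of a gene scaled to a common library total in the usual way. Where no read was counted, a true level of as much as 3 reads remains possible from counting error alone, or 0.1802 to 0.222 CPM in the glucose and 0.227 to 0.340 CPM in the insulin libraries. Called genes had a log2 fold change beyond 0.1 in either direction and, in the quasi-likelihood test of edgeR with Benjamini-Hochberg adjustment over every gene tested, an adjusted p under 0.05. CPM are not corrected for gene length, so levels were compared between groups and not between genes.

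The labelled cell types were checked with KRT18, a keratin of epithelial cells, and VIM, an intermediate filament of stromal cells, and with 29 measured epithelial and 29 measured stromal markers. KRT18 lay between 440.3 and 1788 CPM in the 15 epithelial libraries and between 0 and 336 CPM in the 15 stromal libraries. VIM lay between 385 and 1015 CPM in epithelial and between 1591 and 4449 CPM in stromal libraries. A pair of glucose libraries stood apart. In replicate 2 of the epithelial cells at 5 mM, 13 mitochondrially encoded genes held 0.128% of the counts, against 1.18% to 2.36% in the other 29 libraries, and 610 of 13363 genes lay more than 4-fold from the other libraries of its group. In replicate 3 of the stromal cells at 50 mM, the epithelial markers summed to 7443 CPM, which was 61.3% of the mean of the epithelial cells at 50 mM, and the stromal markers to 30228 CPM. The other 5 stromal libraries of the glucose experiment held 370.3 to 2060.4 CPM of epithelial and 75546 to 96974 CPM of stromal markers. In bulk RNA, fewer cells of a type and less RNA per cell cannot be told apart.

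**Figure D1:**
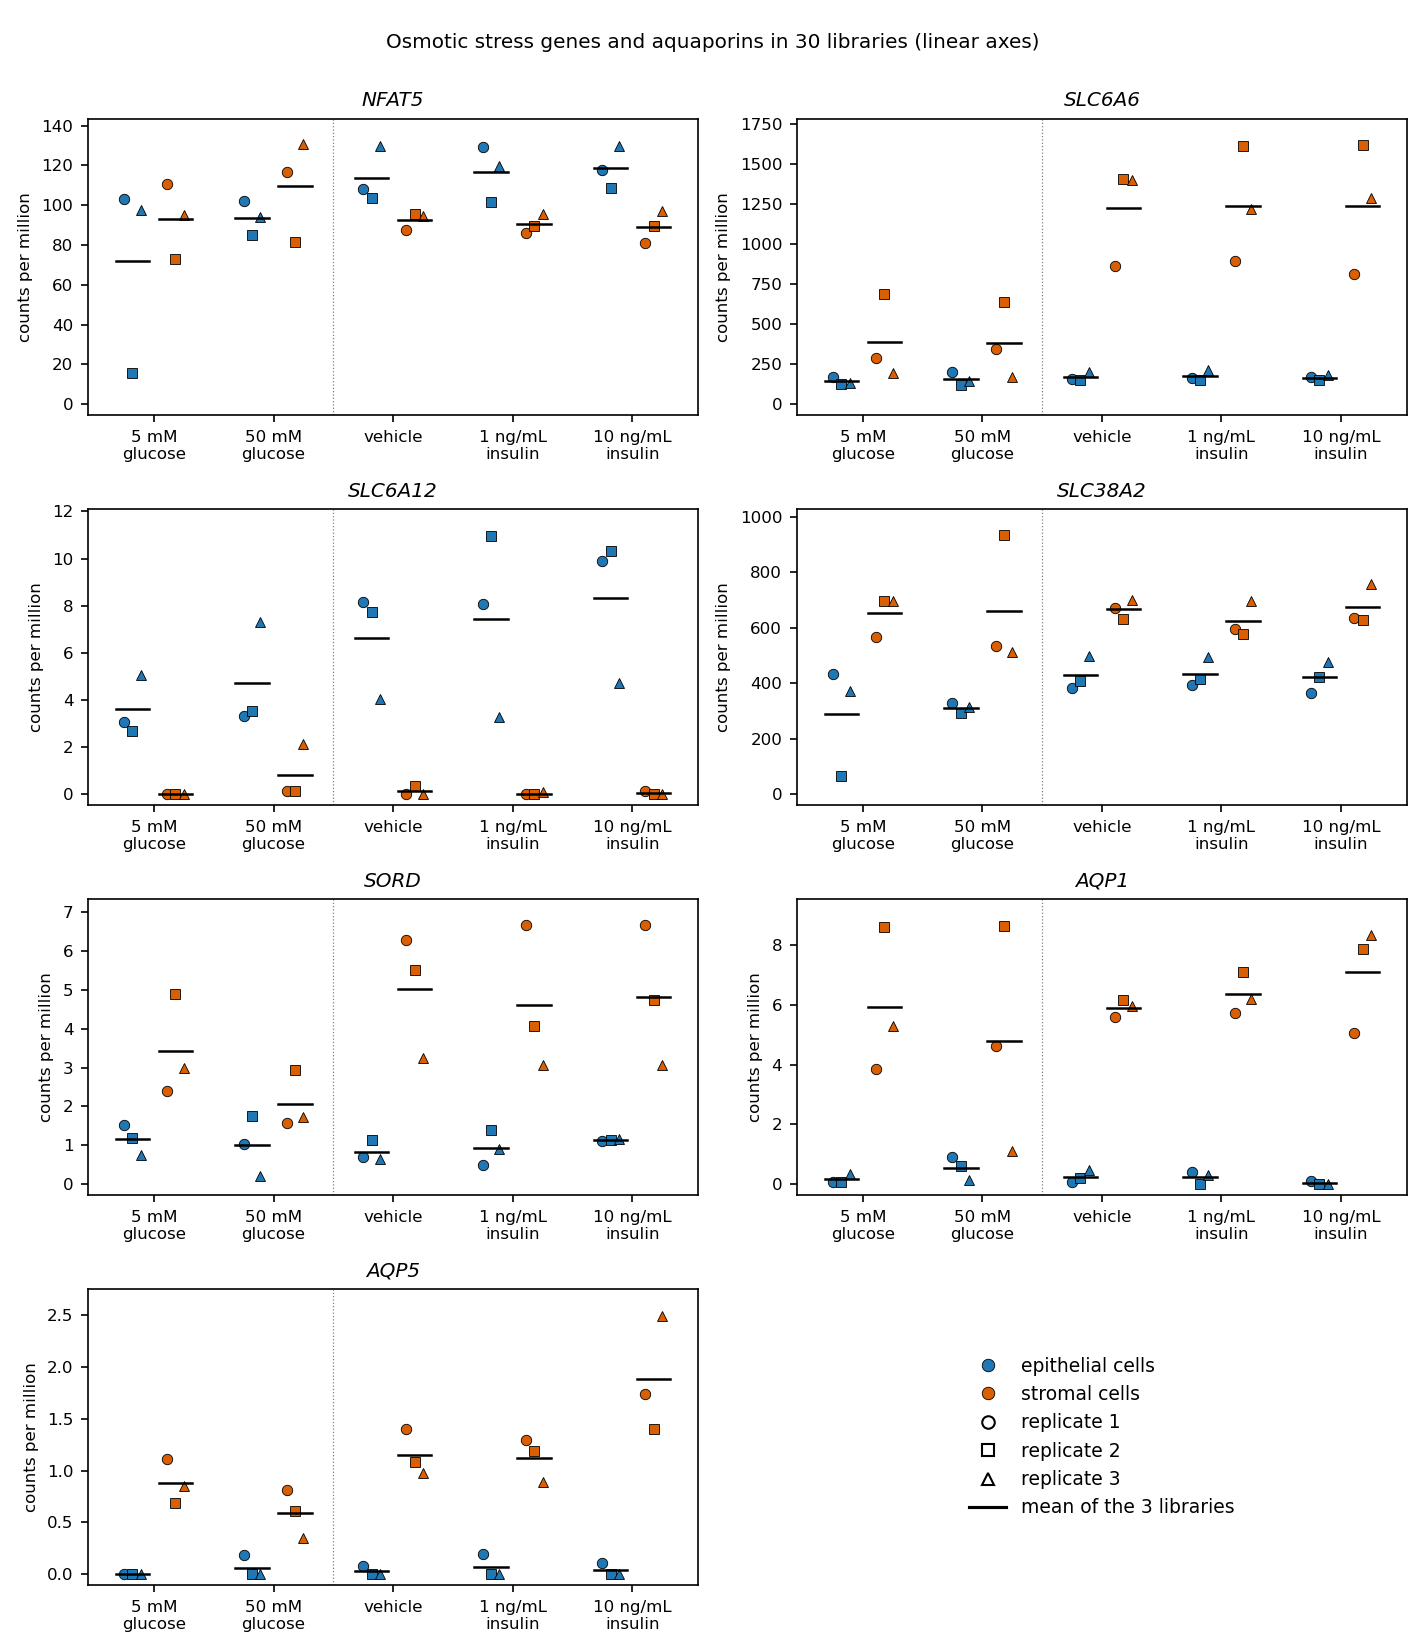
Level of each of the 7 genes in all 30 libraries, in CPM on linear axes, by treatment (5 groups of epithelial cells in blue and 5 of stromal cells in orange). Symbols mark replicates 1 to 3, black lines are means of 3 libraries, and the dotted line separates the glucose from the insulin experiment. Replicate 2 of the epithelial cells at 5 mM glucose lies far below the others for NFAT5 (15.5 CPM) and SLC38A2 (64.3 CPM), and stromal SLC6A12 leaves the baseline in replicate 3 at 50 mM (2.14 CPM).

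The first comparison asked whether the set differed between 50 mM and 5 mM glucose in epithelial cells. None of the 5 genes that passed the filter on low counts was called, and neither was any of the 13713 genes tested (0%). At an unadjusted p under 0.05 there were 0 of the 5 genes and 212 of all genes, and DESeq2 called 0 genes as well. Without replicate 2 there were 221 genes called and again none of the set. The median log2 fold change of the 5 genes was 0.36, against 0.01 over all genes tested. That median rested in part on replicate 2, where NFAT5 and SLC38A2 differed by 2.43 and 2.15 on the log2 scale. Their other pairs lay between -0.34 and 0.05. AQP1 and AQP5 did not pass the filter in epithelial cells. For each of the 7 genes the 3 libraries at 50 mM overlapped with the 3 at 5 mM in CPM, while 5.54% of the genes tested did not overlap.

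NFAT5, the regulator of the response, was present at 103, 15.5 and 97.7 CPM in replicates 1 to 3 of the epithelial cells at 5 mM and at 102, 85.2 and 94.2 CPM at 50 mM. The replicate 2 library at 5 mM stood far below the other 5, and the groups overlapped. The log2 fold change was 0.75 (standard error 0.542, 95% interval -0.59 to 2.09, adjusted p = 0.804). Without replicate 2 in both groups it was 0.00047, since replicates 1 and 3 differed by 0.05 and -0.04 on the log2 scale between the concentrations.

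SLC38A2, a sodium-coupled carrier of small neutral amino acids that cells also use to regain volume, showed the same low library. It was at 435, 64.3 and 371 CPM at 5 mM and at 327, 291 and 314 CPM at 50 mM. The fitted log2 fold change was 0.47 (standard error 0.545, adjusted p = 0.804), while it was -0.29 without replicate 2, where SLC38A2 was lower at 50 mM in both remaining pairs. The direction for SLC38A2 in epithelial cells thus turned on 1 library.

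The carriers of taurine and betaine did not share this pattern. SLC6A6 was at 170.2, 127 and 132 CPM at 5 mM and at 198, 117 and 147 CPM at 50 mM, with overlapping groups, and the fit put it at 0.09 on the log2 scale (standard error 0.215, adjusted p = 0.874). SLC6A12 had 46, 36 and 74 counts (3.06, 2.67 and 5.07 CPM) at 5 mM and 54, 59 and 104 counts (3.30, 3.54 and 7.30 CPM) at 50 mM. It was higher at 50 mM in 3 of 3 pairs, by 0.18, 0.38 and 0.54 on the log2 scale, yet the groups overlapped and the fitted value of 0.36 (standard error 0.299, 95% interval -0.39 to 1.098, adjusted p = 0.804) did not pass the test. Its value stayed between 0.25 and 0.43 when any replicate was left out.

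SORD, which oxidizes sorbitol to fructose in the polyol pathway, was near the limit of these libraries in epithelial cells. It had 23, 16 and 11 counts at 5 mM and 17, 29 and 3 counts at 50 mM, that is 0.754 to 1.53 CPM and 0.211 to 1.74 CPM. Its log2 fold change was -0.41 (standard error 0.541, adjusted p = 0.809), with -0.85 without replicate 2 and -0.0064 without replicate 3. AKR1B1, the aldose reductase that makes sorbitol and a known NFAT5 target, was at 63.6, 74.7 and 25.4 CPM at 5 mM and at 60.2, 52.7 and 26.1 CPM at 50 mM, which the fit put at -0.18 (standard error 0.239, adjusted p = 0.813).

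AQP1 and AQP5, the aquaporins of the set that were found, were almost silent in epithelial cells. AQP1, a water channel best known from endothelium and red blood cells, had 1, 1 and 5 counts at 5 mM and 15, 10 and 2 counts at 50 mM, and no fold was tested. The libraries with the 15 and 10 counts also held the highest sums of stromal markers of the 15 epithelial libraries, at 8942 and 7810 CPM. At 5 mM the sums in replicates 1 to 3 were 6848, 3981 and 2854 CPM beside the 1, 1 and 5 counts. In the 9 epithelial libraries of the insulin experiment 1531 to 6028 CPM stood beside 0 to 5 counts. The part of these markers in the AQP1 counts was not tested. AQP5, a water channel of secretory epithelia, had 0 counts in all 3 libraries at 5 mM and 3, 0 and 0 at 50 mM, all within the 3 counts that a count of 0 allows.

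The same comparison in stromal cells tested 6 of the 7 genes. None was called, with 0% of 13644 genes tested called, although 664 genes and 1 of the 6, SORD, had an unadjusted p under 0.05. DESeq2 called 178 genes, none of them in this set, and without replicate 3 no gene of the set was called either. The median log2 fold change of the 6 genes was -0.36, against -0.03 over all genes tested. That median rested in part on replicate 3, whose library at 50 mM was high in epithelial markers. In that pair AQP1, AQP5 and SLC38A2 differed by -2.42, -1.46 and -0.60 on the log2 scale. Their other pairs lay between -0.39 and 0.36, while SORD was lower at 50 mM in every pair.

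SORD had the smallest p of the set in stromal cells. It was at 2.41, 4.90 and 2.99 CPM at 5 mM (37, 78 and 49 counts) and at 1.56, 2.93 and 1.73 CPM at 50 mM (25, 43 and 25 counts). Every replicate was lower at 50 mM than its partner, by 0.57, 0.80 and 0.95 on the log2 scale, while the groups overlapped because replicate 2 was high in both. The log2 fold change was -0.79 (standard error 0.224, 95% interval -1.39 to -0.18, unadjusted p = 0.0226, adjusted p = 0.696), so SORD did not pass the adjusted threshold. Leaving out any replicate gave -0.88 to -0.73. AKR1B1, upstream of SORD in the polyol pathway, was at 0.12 (standard error 0.171, adjusted p = 0.803).

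NFAT5 was at 111, 73.0 and 94.98 CPM at 5 mM and at 117, 81.7 and 131 CPM at 50 mM in stromal cells. All 3 replicates were higher at 50 mM, the groups overlapped, and the log2 fold change was 0.17 (standard error 0.108, 95% interval -0.13 to 0.46, adjusted p = 0.696). Without replicate 3 it was 0.09. SLC38A2 was at 566, 697 and 698 CPM at 5 mM and at 536, 936 and 511 CPM at 50 mM, with a log2 fold change of -0.10 (standard error 0.218) that was 0.14 without replicate 3. SLC6A6 was at 288, 691 and 196 CPM at 5 mM and at 346, 639 and 168 CPM at 50 mM. For SLC6A6 the replicates were ordered alike at both concentrations, with replicate 2 highest and replicate 3 lowest, and the log2 fold change was -0.09 (standard error 0.177, adjusted p = 0.863).

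SLC6A12 was absent from the stromal cells at 5 mM, with 0 counts in all 3 libraries, and had 2, 2 and 31 counts at 50 mM, so the groups did not overlap, as for 6.16% of the genes tested. Against the floor of 3 counts per library the mean at 50 mM was at least 4.24-fold higher, but 2 of the 3 libraries at 50 mM lay under that floor and the bound rests on replicate 3. That library was the one with 7443 CPM of epithelial markers. Its SLC6A12 level of 2.14 CPM was 45.4% of the mean of the epithelial cells at 50 mM, beside 61.3% for the epithelial markers. The gene did not pass the filter here, and the part of epithelial RNA in its counts was not tested.

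AQP1 and AQP5 were measurable in stromal cells. AQP1 was at 3.84, 8.61 and 5.31 CPM at 5 mM and at 4.63, 8.67 and 1.105 CPM at 50 mM, and the fitted log2 fold change was -0.61 (standard error 0.596, adjusted p = 0.736). Replicates 1 and 2 differed by 0.32 and -0.05 between the concentrations and replicate 3 by -2.42, and without replicate 3 the value was 0.08. AQP5 had 17, 11 and 14 counts at 5 mM and 13, 9 and 5 counts at 50 mM (0.692 to 1.11 and 0.345 to 0.814 CPM). AQP5 was lower at 50 mM in 3 of 3 pairs with overlapping groups, and its fitted log2 value of -0.66 (standard error 0.398, adjusted p = 0.696) was -0.34 without replicate 3.

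**Figure D2:**
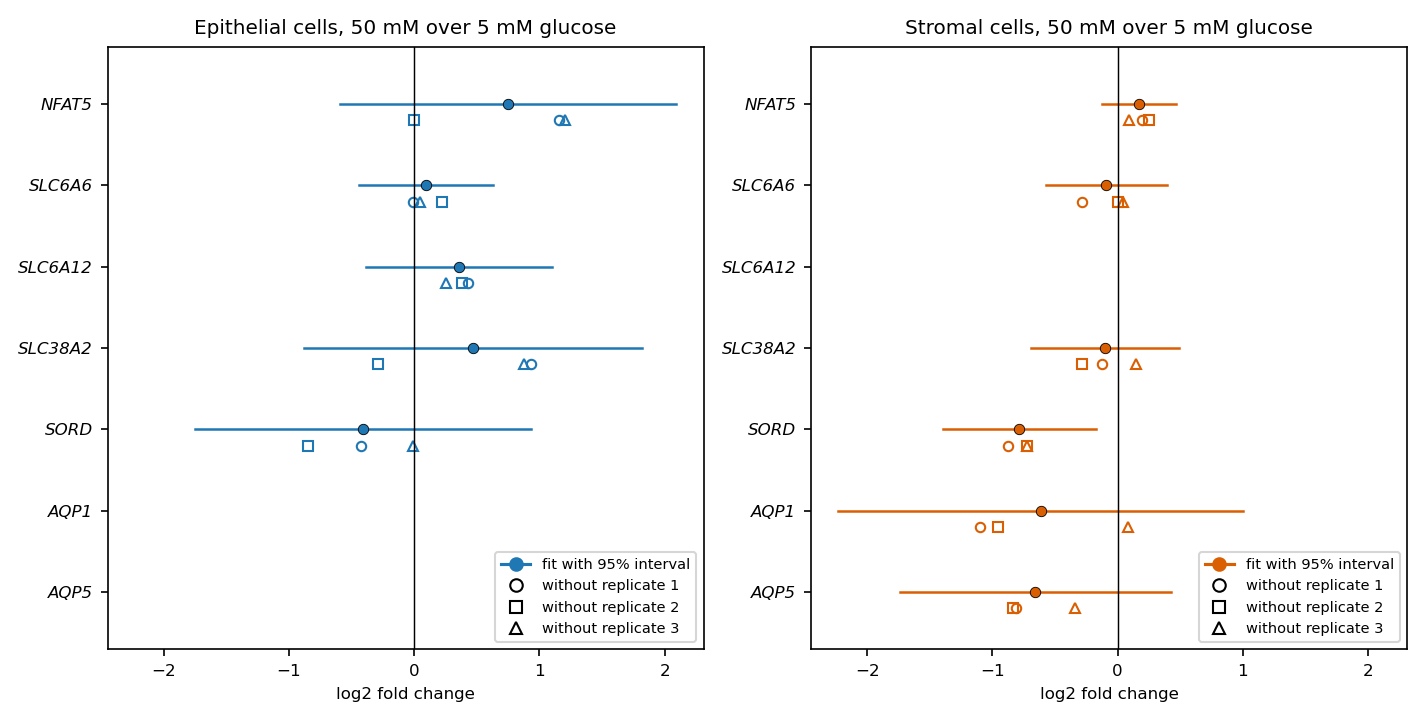
Log2 fold change of each gene at 50 mM over 5 mM glucose in epithelial (left) and stromal cells (right), with 95% intervals from the edgeR fit on 3 pairs of libraries and, below each, the value after leaving out 1 replicate. Genes without a symbol in a panel did not pass the filter on low counts. NFAT5 and SLC38A2 in epithelial cells move from 1.202 and 0.87 without replicate 3 to 0.00047 and -0.29 without replicate 2, whereas stromal SORD stays between -0.88 and -0.73.

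The difference between the 2 glucose effects was tested as an interaction over the 12 libraries. None of the 7 genes was called and 0% of 14640 genes, with 1102 genes at an unadjusted p under 0.05, while DESeq2 called 250 genes. SLC6A12 had the smallest p of the set (log2 difference of the effects, epithelial minus stromal, -6.23, unadjusted p = 0.00108, adjusted p = 0.495). This fitted value compares with a stromal group at 0 in every library and is no measure of size. In DESeq2 it was -4.61 with an adjusted p of 0.0366, and without replicate 3 it was -3.93 (adjusted p = 0.809, edgeR). For the other 6 genes the adjusted p lay between 0.669 and 0.858.

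Related genes of the pathway, in 5 lists, were read beside the set, and none was called in either cell type. Of 35 listed NFAT5 targets and partners 31 were tested in each cell type, with a median log2 fold change of -0.05 in epithelial cells (14 above and 17 below 0) and 0.09 in stromal cells (18 above and 13 below 0), against 0.01 and -0.03 over all genes. In epithelial cells the smallest p in this list belonged to CCM2, a scaffold of the p38 kinase pathway (log2 fold change -0.44, unadjusted p = 0.109), and ATM, a kinase that acts on NFAT5 (0.47, unadjusted p = 0.246). In stromal cells they belonged to TNFRSF21, a death receptor (0.90, standard error 0.239, unadjusted p = 0.018), and HSPA1A, an inducible chaperone of the HSP70 family (0.50, standard error 0.141, unadjusted p = 0.0216). TNFRSF21 was higher at 50 mM in 3 of 3 stromal pairs (103.3 against 51.9 CPM in the mean) and HSPA1A also (329.5 against 220.4 CPM), but both had an adjusted p of 0.696.

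Among enzymes of osmolytes and polyols 15 genes were tested in each cell type, with medians of -0.12 in epithelial and -0.07 in stromal cells. The smallest p belonged in epithelial cells to SLC44A1, a choline carrier (0.54, unadjusted p = 0.0827), and ADO, a thiol dioxygenase (-0.50, unadjusted p = 0.1402). In stromal cells it belonged to CHDH, which turns choline towards betaine (2.41, unadjusted p = 0.0285), and GDPD5, which breaks down glycerophosphocholine (0.34, unadjusted p = 0.0406). CHDH was higher in epithelial than in stromal cells in the insulin vehicle groups by 6.66 on the log2 scale, and its stromal level at 50 mM varied as 3.19 ± 4.30 CPM (SD, n = 3).

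Other carriers of osmolytes and amino acids gave medians of 0.02 over 13 genes in epithelial and -0.21 over 14 genes in stromal cells. SLC7A5, the light chain of a carrier of large neutral amino acids, was lower at 50 mM in 3 of 3 pairs of both cell types, with log2 fold changes of -0.67 (unadjusted p = 0.0414) and -0.29 (unadjusted p = 0.0490). The glutamine carrier SLC1A5 was at -0.70 in epithelial cells (unadjusted p = 0.0586) and the cystine carrier SLC7A11 at -0.67 in stromal cells (unadjusted p = 0.0232). None of these passed the adjusted threshold.

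Genes of cell volume and ion transport had medians of 0.05 over 33 genes in epithelial and 0.10 over 32 genes in stromal cells, with 1 and 8 genes at an unadjusted p under 0.05. In epithelial cells the potassium channels KCNMA1 (1.26, unadjusted p = 0.0427) and KCNK5 (-0.76, unadjusted p = 0.0706) led the list by p. In stromal cells the chloride channel ANO1 (1.57, unadjusted p = 0.0129) and the kinase WNK3, which acts on chloride cotransporters (-0.79, unadjusted p = 0.0148), did so. Of 12 other aquaporins listed, 4 were in the tables. In stromal cells AQP11 (-0.22) and AQP4 (0.08) were tested, with adjusted p of 0.862 and 0.970, and in epithelial cells none passed the filter.

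Markers of the other cell type lay mostly above 0 for 50 mM over 5 mM in both cell types, and their part in the changes above was not tested. In stromal cells 27 of 28 tested epithelial markers lay above 0 (median 4.42, 4 with an unadjusted p under 0.05). Their sums in replicates 1 to 3 were 1035, 517 and 370 CPM at 5 mM and 2060, 1359 and 7443 CPM at 50 mM. Of the stromal markers 29 of 29 lay below 0 (median -0.54, 0 with an unadjusted p under 0.05). The smallest p belonged to KRT18 (1.44, unadjusted p = 0.0148) and CLDN3 (4.12, unadjusted p = 0.0206), and to TCF21 (-0.86) and VIM (-0.55) among stromal markers. In epithelial cells 27 of 27 stromal markers lay above 0 (median 0.71, 5 with an unadjusted p under 0.05). They were led by COL1A1 (0.91, unadjusted p = 0.00684) and COL1A2 (0.89, unadjusted p = 0.00704). Of the epithelial markers 19 of 29 lay below 0 (median -0.13), while MUC1 (0.46) and MAL2 (0.53) were among the 10 above 0. Smooth muscle and pericyte markers had medians of 0.89 in epithelial cells, led by CSPG4 (0.89) and SYNPO2 (1.42), and -0.31 in stromal cells, led by MCAM (-0.31) and LMOD1 (-0.50). Endothelial markers, of which 13 of 16 were measured, had medians of -0.07 (FLT1 at 0.85 and EGFL7 at -1.09) and 0.22 (EMCN at 1.12 and VWF at 0.96). Immune cell markers had medians of 0.19 (CD68 at 0.41 and AIF1 at 0.22) and 0.05 (CD68 at 0.35 and CD14 at -0.24), and of the red blood cell markers only HBA was tested, at -0.02 and 0.78. Of all the marker genes none was called.

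**Figure D3:**
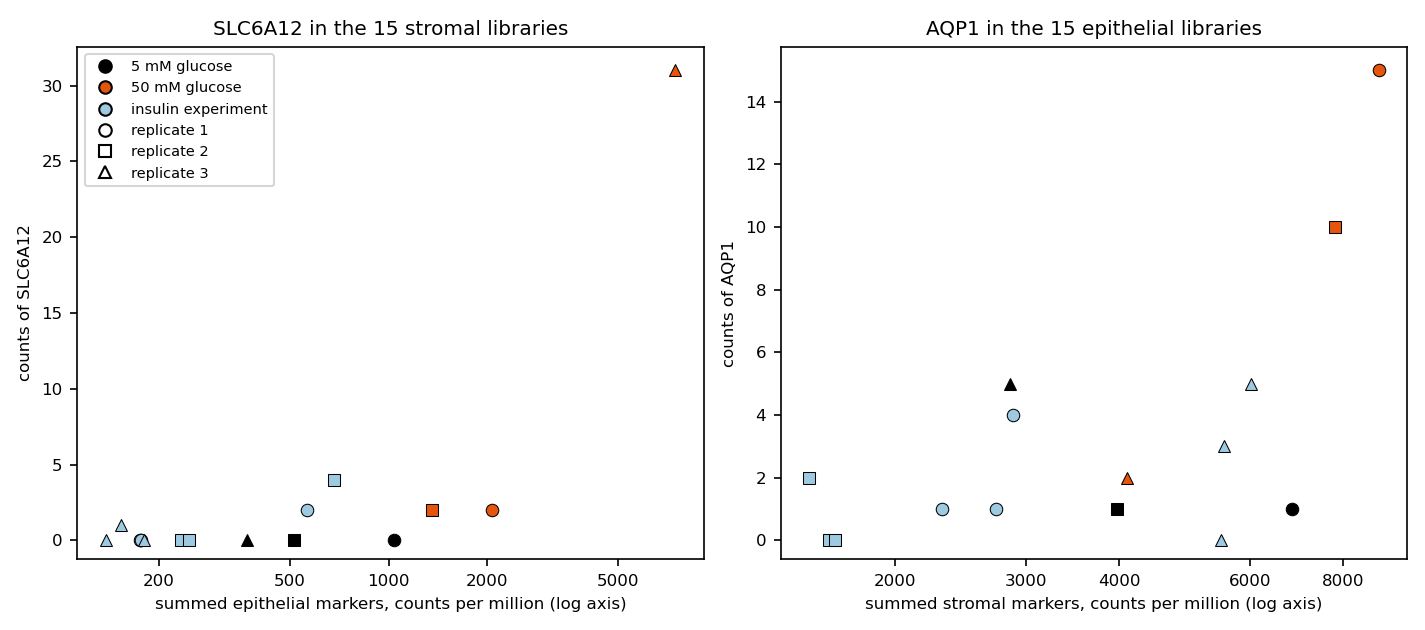
Left, counts of SLC6A12 in the 15 stromal libraries against the summed epithelial markers, and right, counts of AQP1 in the 15 epithelial libraries against the summed stromal markers (x axes in CPM, log scale; symbols mark replicates). Stromal replicate 3 at 50 mM lies apart with 31 counts of SLC6A12 at 7443 CPM of epithelial markers. The 15 and 10 counts of AQP1 at 50 mM lie at 8942 and 7810 CPM of stromal markers. Epithelial replicate 1 at 5 mM has 1 count of AQP1 at 6848 CPM.

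The insulin experiment asked whether the set differed between vehicle, 1 ng/mL and 10 ng/mL insulin. No gene of the set was called in any of the 6 comparisons, which tested 4 to 6 of the genes each. Among all genes tested the share called was 0% for 1 ng/mL over vehicle, 0.124% for 10 ng/mL over vehicle and 0% for 10 over 1 ng/mL in epithelial cells, and 0.0157%, 0% and 0.0313% in stromal cells. In the 3 comparisons without a call 383, 572 and 356 genes had an unadjusted p under 0.05, and DESeq2 called 0 genes in each. Of the 7 genes, SLC6A12 at 10 ng/mL in epithelial cells alone had an unadjusted p under 0.05. DESeq2 called none of the set either. In CPM no gene of the set was free of overlap in the other 4 comparisons (2.23%, 2.86% and 3% of the genes tested in epithelial cells and 4.35% for 1 ng/mL over vehicle in stromal cells), and AQP5 was so in the remaining pair of stromal comparisons.

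In epithelial cells SLC6A12 was at 8.15, 7.75 and 4.03 CPM with vehicle, at 8.05, 10.98 and 3.28 CPM with 1 ng/mL and at 9.91, 10.3 and 4.72 CPM with 10 ng/mL insulin. Replicate 3 was the lowest in every group, and all groups overlapped. SLC6A12 was higher with 10 ng/mL than with vehicle in 3 of 3 pairs, by 0.30 in the fit (standard error 0.144, 95% interval 0.01 to 0.60, unadjusted p = 0.0428, adjusted p = 0.699). Stromal markers lay below 0 for 19 of 25 tested in the same comparison (median -0.09, 9 with an unadjusted p under 0.05, VIM at -0.15), and smooth muscle and pericyte markers for 7 of 9 (median -0.20), with no call, and their part in the SLC6A12 value was not tested. With 1 ng/mL SLC6A12 was at 0.13 (standard error 0.161), which was -0.13 without replicate 2.

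For NFAT5 and the carriers SLC38A2 and SLC6A6 the intervals of the insulin differences were narrow in both cell types. NFAT5 lay between 101.6 and 129.9 CPM in the 9 epithelial and between 80.9 and 97.0 CPM in the 9 stromal libraries of this experiment. Its log2 fold change for 10 ng/mL over vehicle was 0.05 in epithelial cells (95% interval -0.04 to 0.15) and -0.05 in stromal cells (95% interval -0.18 to 0.07). SLC38A2 lay between 365 and 499.5 CPM in epithelial and between 579 and 758 CPM in stromal cells, with -0.04 (95% interval -0.12 to 0.04) and 0.01 (95% interval -0.12 to 0.15). SLC6A6 lay between 150.4 and 212 CPM in epithelial and between 814 and 1623 CPM in stromal cells, with -0.04 (95% interval -0.13 to 0.05) and 0.0047 (95% interval -0.16 to 0.17). AKR1B1 was at -0.10 (adjusted p = 0.839) and 0.0096 (adjusted p = 0.999).

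AQP5 had the largest fitted value of the set in stromal cells with insulin. It had 16, 12 and 9 counts with vehicle, 14, 14 and 11 with 1 ng/mL and 23, 16 and 26 with 10 ng/mL, that is 0.975 to 1.40, 0.888 to 1.30 and 1.403 to 2.50 CPM. In CPM the 3 libraries with 10 ng/mL lay above all 3 with vehicle and all 3 with 1 ng/mL, as did the libraries of 2.86% and 3.5% of all genes tested in these comparisons, in either direction. The log2 fold changes were 0.66 over vehicle (standard error 0.328, 95% interval -0.08 to 1.41, unadjusted p = 0.0752, adjusted p = 0.999) and 0.70 over 1 ng/mL (standard error 0.345, unadjusted p = 0.0666, adjusted p = 1.00). Both comparisons use the same 3 libraries with 10 ng/mL. Replicate 3 differed most, by 1.37 over vehicle and 1.48 over 1 ng/mL, and without it the fitted values were 0.34 and 0.30. Epithelial markers were mostly higher in the same stromal comparisons. Of those tested, 18 of 20 lay above 0 for 10 ng/mL over vehicle (median 0.40, 0 with an unadjusted p under 0.05) and 8 of 8 for 10 over 1 ng/mL (median 1.199, 5 with an unadjusted p under 0.05, 1 called). Their sum was 138 to 681 CPM with vehicle, 154 to 233 CPM with 1 ng/mL and 179.6 to 566 CPM with 10 ng/mL. AQP5 itself held 5 to 26 counts in stromal and 0 to 3 in epithelial libraries. Replicates 1 to 3 with 10 ng/mL held 566, 246 and 179.6 CPM of epithelial markers beside 23, 16 and 26 counts of AQP5. With vehicle they held 175, 681 and 138 CPM beside 16, 12 and 9 counts. The part of these markers in the AQP5 values was not tested.

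AQP1 and SORD with insulin gave no call. Stromal AQP1 was at 5.60 to 6.16 CPM with vehicle, 5.74 to 7.12 with 1 ng/mL and 5.07 to 8.36 with 10 ng/mL, and stromal SORD at 3.25 to 6.30, 3.07 to 6.67 and 3.07 to 6.66 CPM. For 10 ng/mL over vehicle the log2 fold change was 0.24 for AQP1 (standard error 0.183) and -0.06 for SORD (standard error 0.178). Stromal SORD was lowest in replicate 3 in each of the 3 groups. Stromal SLC6A12 held 4, 1 and 2 counts in all with vehicle, 1 ng/mL and 10 ng/mL. Epithelial AQP1 held 8, 7 and 1 counts in all, and the ratio of vehicle to 10 ng/mL was 6.61 with a 95% counting interval of 0.886 to 293. The test of whether the 10 ng/mL effect differed between cell types called none of the 7 genes and 0% of 13904 genes, with 563 genes and 0 of the set at an unadjusted p under 0.05, and DESeq2 called 0 genes.

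**Figure D4:**
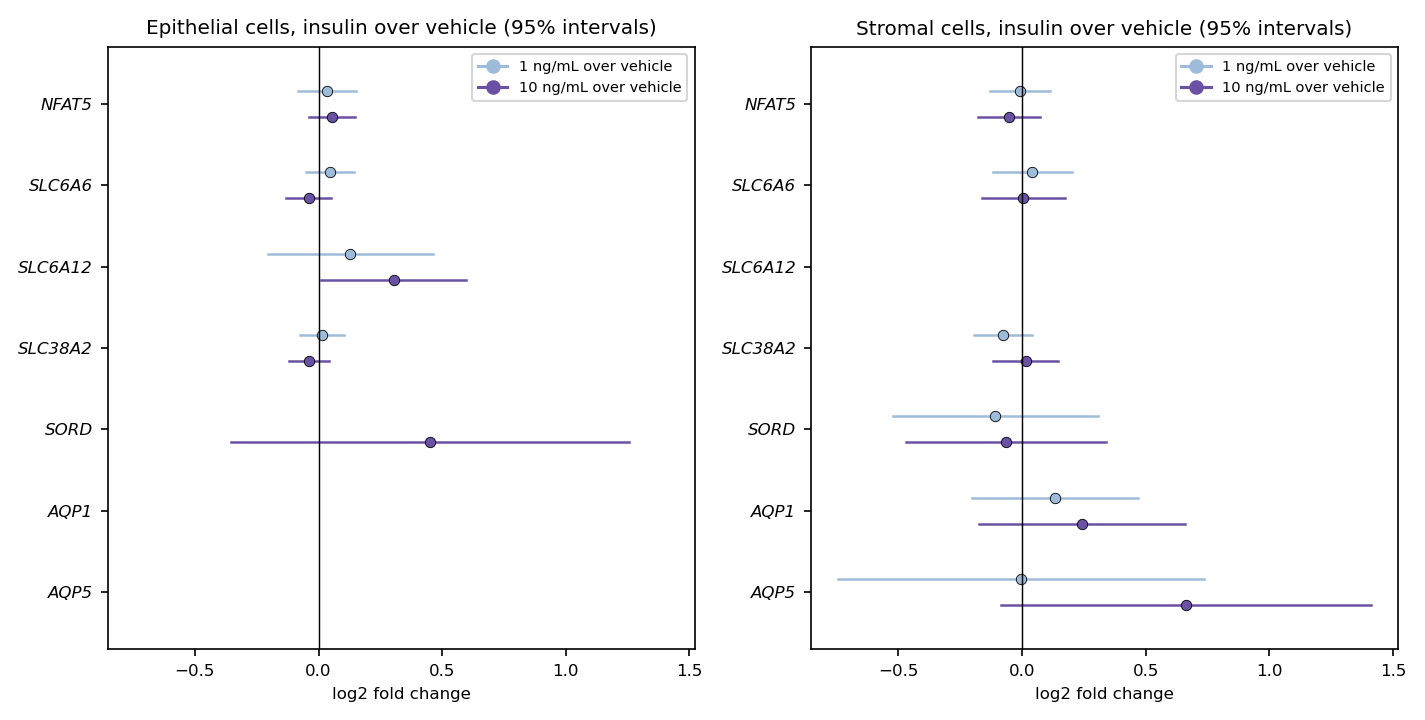
Log2 fold change of each gene with 1 ng/mL (light) and 10 ng/mL insulin (dark) over vehicle in epithelial (left) and stromal cells (right), with 95% intervals from the edgeR fit on 3 pairs of libraries. Genes without a symbol did not pass the filter on low counts. NFAT5, SLC6A6 and SLC38A2 have short intervals around 0, while stromal AQP5 spans -0.08 to 1.41 at 10 ng/mL.

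The comparison of epithelial with stromal cells under each condition asked in which cell type the genes were used. With insulin vehicle all 7 genes were tested and 6 were called, where 55.2% of all genes were called. The counts were 5 of 6 with 1 ng/mL (58.9% of all genes) and 6 of 7 with 10 ng/mL (54.4%). In the glucose experiment they were 3 of 7 at 5 mM (21.1%) and 3 of 6 at 50 mM (17.3%). With 7 genes nothing is read from the difference between these shares. SLC6A12, AQP1 and AQP5 entered these tests only through the cell type in which they were higher. The libraries of the cell types did not overlap for 7 of 7 genes in each insulin comparison (65.5%, 67.6% and 65.9% of all genes tested), for 6 of 7 at 5 mM (44.5%) and for 4 of 7 at 50 mM (35.2%).

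SLC6A12 was the 1 gene of the set that was called higher in epithelial cells, and it was so in each of the 5 comparisons. It entered these tests only through its epithelial counts, since it did not pass the filter in any comparison of stromal groups. The calls therefore add little to the counts themselves. It held 33 to 125 counts in the 15 epithelial libraries, and in the 15 stromal libraries 0 to 4 counts apart from the 31 counts of replicate 3 at 50 mM. At 5 mM, with a stromal group at 0, it was at least 19.0-fold higher in epithelial cells (adjusted p = 0.0136). At 50 mM the log2 fold change was 3.01 (standard error 0.646, adjusted p = 0.0366) and with insulin vehicle 5.63 (standard error 0.741, adjusted p = 0.00401). With 1 ng/mL and 10 ng/mL insulin the stromal groups held 1 and 2 counts in all, and the ratios were 265 (95% counting interval 47.2 to 10526) and 144 (39.4 to 1198). Of the 15 stromal libraries 6 held a count of SLC6A12, with 154 to 7443 CPM of epithelial markers, and the other 9 held 138 to 1035 CPM.

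The remaining carriers were higher in stromal cells. SLC6A6 was at 170.4 ± 27.3 CPM in epithelial and 1225 ± 312 CPM in stromal cells with insulin vehicle (SD, n = 3 each), a fitted log2 value of -2.90 (standard error 0.231, adjusted p = 0.00141). It was called with 1 ng/mL (-2.89) and 10 ng/mL insulin (-2.96), while at 5 mM (-1.47, adjusted p = 0.0739) and 50 mM glucose (-1.29, adjusted p = 0.106) it was not. The stromal level of SLC6A6 was 168 to 691 CPM in the glucose experiment and 814 to 1623 CPM in the insulin experiment. The epithelial ranges were 117 to 198 and 150.4 to 212 CPM. The experiments were processed as separate tables and differ in more than the treatment, so the stromal difference was not tested. How many of all genes differ between the experiments in this way was not counted. SLC38A2 was at 430 ± 61.9 CPM in epithelial and 669 ± 34.0 CPM in stromal cells with vehicle (-0.72, standard error 0.114, adjusted p = 0.00638), and was called in each insulin comparison and at 50 mM (-1.18, adjusted p = 0.0366). At 5 mM SLC38A2 was at -1.74 (adjusted p = 0.123), or -0.90 without replicate 2. Its groups did not overlap in any of the 5 comparisons.

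SORD was at 0.833 ± 0.264 CPM in epithelial and 5.02 ± 1.58 CPM in stromal cells with vehicle (-2.65, standard error 0.298, adjusted p = 0.00273). It was called in the 3 insulin comparisons and was at -1.77 (adjusted p = 0.0678) and -1.36 (adjusted p = 0.125) in the glucose comparisons. AKR1B1, which precedes SORD in the polyol pathway, did not pass the test in any of the 5 comparisons, with values between -0.47 and 0.30. NFAT5 did not pass it either. Its log2 fold change was -0.95 at 5 mM (standard error 0.510), or -0.28 without replicate 2, whose epithelial library stood apart, and -0.35 at 50 mM (standard error 0.171), and 0.21, 0.25 and 0.31 with insulin vehicle, 1 ng/mL and 10 ng/mL, with adjusted p between 0.0951 and 0.265. In the insulin experiment the lowest epithelial value of NFAT5 was 101.6 CPM and the highest stromal value 97.0 CPM, so its libraries did not overlap. Within the 3 insulin conditions this held for 65.5%, 67.6% and 65.9% of all genes tested. The share over all insulin libraries together was not computed.

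Both aquaporins of the set that were found had their higher levels in the stromal cells of these cultures. AQP1 held 16 to 137 counts in the 15 stromal libraries and 0 to 15 in the epithelial ones, of which 12 had a count. AQP1 entered the tests between the cell types only through its stromal counts, since it did not pass the filter in any comparison of epithelial groups. Its calls and adjusted p therefore add little to the counts themselves. The epithelial groups held 7, 27, 8 and 7 counts in all at 5 mM, at 50 mM, with vehicle and with 1 ng/mL. Its log2 fold change was -5.39 at 5 mM (adjusted p = 0.00721), -3.20 at 50 mM (adjusted p = 0.00891), -4.65 with vehicle (adjusted p = 0.0020) and -4.87 with 1 ng/mL (adjusted p = 0.00139), and with 10 ng/mL the stromal level was 190.4 times that of the 1 count in epithelial cells (95% counting interval 33.9 to 7551). AQP5 held 5 to 26 counts in stromal libraries and 0 to 3 in epithelial libraries. The 4 epithelial libraries with a count of AQP5 were all replicate 1, with 3 counts at 50 mM, 1 with vehicle, 2 with 1 ng/mL and 1 with 10 ng/mL.

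AQP5 entered a test between the cell types only through its stromal counts, so its calls likewise add little to the counts themselves. It passed the filter and was called at 5 mM (at least 4.23-fold higher in stromal cells, adjusted p = 0.0282), with vehicle (ratio 38.6, 95% counting interval 6.51 to 1566, adjusted p = 0.00599) and with 10 ng/mL (ratio 50.7, 8.79 to 2034, adjusted p = 0.00596). At 50 mM and 1 ng/mL it did not pass the filter, and the stromal to epithelial ratios were 9.42 (2.90 to 48.5) and 17.6 (4.55 to 150.1). AQP4, a water channel of astrocytes and other cells that was not in the set, was likewise at 3 to 38 counts in stromal and 0 to 2 in epithelial libraries. MIP held 0 to 5 counts in any library, AQP9 0 to 11, and AQP11, which lies in the endoplasmic reticulum, 3 to 30.

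The calls at 50 mM glucose changed with the pairing and with replicate 1, for the set and for all genes alike. Without the replicate block none of the 3 genes was called, while the calls over all genes went from 2397 to 1088. Without replicate 1 no gene of the whole table was called, and the log2 fold changes were 2.64 for SLC6A12, -1.28 for SLC38A2 and -3.65 for AQP1. Without replicate 2 SLC38A2 was not called (-0.88). SLC6A12 was at 4.45 without replicate 3, the pair with the stromal library that held epithelial markers. At 5 mM the 3 called genes were also called without the block, together with SORD and SLC6A6. With insulin vehicle AQP5 was not called without replicate 1, and the other 5 genes were called without any 1 replicate.

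**Figure D5:**
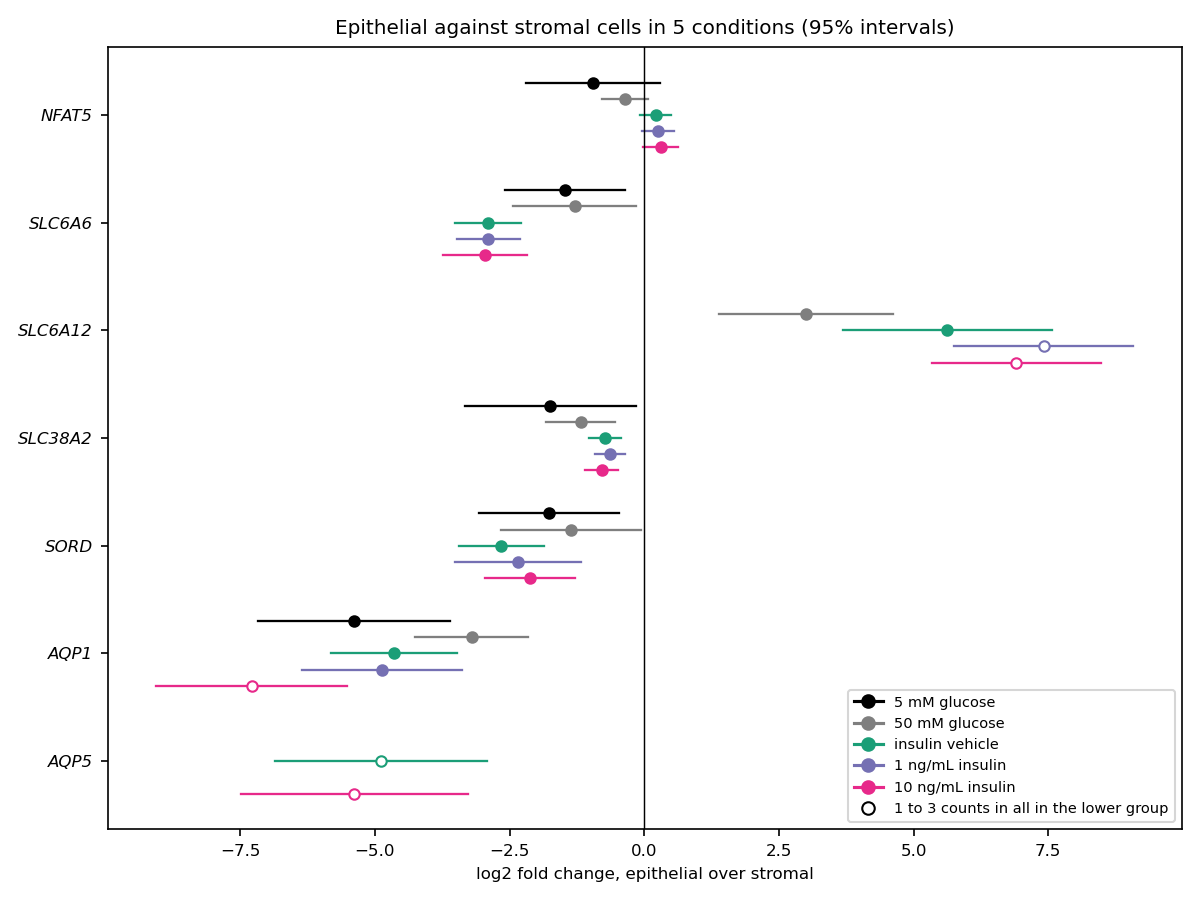
Log2 fold change of each gene in epithelial over stromal cells under 5 conditions, with 95% intervals from the edgeR fit on 3 and 3 libraries. Open symbols mark fits whose lower group held 1 to 3 counts in all, and fits against a group at 0 (SLC6A12 and AQP5 at 5 mM glucose) are left out. SLC6A12 alone lies to the right of 0 with each interval above 0, NFAT5 has an interval that includes 0 in each condition, and the other genes lie to the left.

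The related genes were also read between the cell types with insulin vehicle, where 55.2% of all genes were called, and a count near that share says nothing particular about its list. Of the NFAT5 targets and partners 12 of 30 tested were called higher in epithelial and 3 in stromal cells (median 0.26, against 0.0029 over all genes), led by p by the growth factor gene VEGFA (2.07, adjusted p = 0.00107), the cold-induced RNA-binding protein gene CIRBP (1.88, adjusted p = 0.00137) and the glucose carrier gene SLC2A1 (4.42, adjusted p = 0.00139). Of the carriers 2 of 14 were higher in epithelial and 8 in stromal cells (median -0.81), among them SLC7A11 (-2.55), SLC36A1 (-2.08) and SLC3A2 (-0.99). Enzymes were split, with 5 of 15 higher in each cell type (median -0.27). CHDH was at 6.66, against a stromal mean of 0.0653 CPM, and AKR1A1, an aldehyde reductase, at 1.47, while CDO1, a step towards taurine, was at -5.33. Of genes for cell volume and ion transport 14 of 30 were higher in epithelial and 9 in stromal cells (median 0.58), led by the cotransporters SLC12A7 (3.09) and SLC12A2 (2.84) and the osmosensitive channel TRPV4 (4.10). AQP11, tested alone among the other aquaporins, was at -0.53 (adjusted p = 0.411).

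The marker lists followed the labels in the vehicle groups, where 28 of 29 epithelial markers were higher in epithelial cells, led by ESRP2 (5.79), SPINT2 (4.67) and OVOL1 (6.46), and 29 of 29 stromal markers in stromal cells, led by HAND2 (-6.50), VIM (-2.63) and COL5A1 (-4.09). Smooth muscle and pericyte markers were higher in stromal cells for 6 of 9 (SYNPO2 -5.54, ACTG2 -4.67, CSPG4 -5.73). Endothelial markers were called for 4 of 5, with FLT1 higher in stromal (-3.92) and VWF (3.38) and SOX17 (5.81) in epithelial cells, and of 4 immune cell markers tested 1 was called higher in epithelial and 1 in stromal cells. None of the red blood cell markers was tested.

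Likeness to other genes was measured as Pearson's r of log2(CPM + 1) over the 30 libraries after the mean of each cell type in each experiment was subtracted, over genes with a mean of at least 1 CPM. Libraries share depth, replicate and cell make-up, so the values are a description. SLC6A6 was most like DACH1 (r = 0.90), GALNT15 (0.89) and ENTPD7 (0.86), SLC6A12 most like FUT6 (0.91), GPR183 (0.87) and TADA1 (0.83), and SORD most like CMBL (0.77), BECN1 (0.77) and P2RX4 (0.74). AQP1 was most like a gene without a symbol (ENSBTAG00000054695, 0.84), MYH10 (0.83) and DACH1 (0.83). NFAT5 was most like UBR1 (0.97), MBNL2 (0.97) and NFE2L2 (0.96), and SLC38A2 most like CNIH1 (0.95), UFM1 (0.94) and TM9SF3 (0.94). Without the epithelial replicate 2 library at 5 mM these fell to 0.80, 0.76 and 0.65 for NFAT5 and to 0.72, 0.70 and 0.69 for SLC38A2.

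Within the set NFAT5 and SLC38A2 had the highest r, 0.79 over 30 libraries, which was -0.25 over the 29 libraries without that same epithelial library. SLC6A6 and AQP1 had an r of 0.77 over 30 and 0.78 over 29 libraries. SLC6A12 and AQP1 had the lowest over 30 libraries, at -0.56, and were at -0.59 over 29, where SLC6A12 and SLC38A2 were lowest at -0.61 (-0.13 over 30). Stromal replicate 3 at 50 mM, with 31 counts of SLC6A12 and 1.105 CPM of AQP1, was part of every r given here. Its weight in them was not tested.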

How the data were processed

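Gene counts of 30 libraries were used as deposited. Per the labels and the study's methods, the authors trimmed reads with Cutadapt, aligned them with Rsubread to the Ensembl cow genome, kept unique alignments and counted reads per gene with featureCounts, so the deposited counts are whole reads that were not normalized. The authors' 13 comparison tables hold log2 fold changes and p-values, of which none was used, and served only to pair identifiers with symbols. Counts were normalized with TMM, filtered with filterByExpr and tested with edgeR 4.0.16 in R 4.3.3 for each of 13 pairs of groups and 2 differences of effects, with the replicate number as a block as in the study's paired design. Same-numbered libraries deviated together (every r over 0.1) in 11 of 13 comparisons, with r from 0.029 to 0.862 in all. A call needed an adjusted p (Benjamini-Hochberg) under 0.05 and a log2 fold change beyond 0.1. Standard errors are the fold change over the root of F, and intervals are 95%. Ratios for 1 to 3 counts carry exact binomial intervals, which cover counting error only. The fit was checked on simulated counts of better counted genes, drawn with the same dispersion for every gene. Genes with few counts and libraries that stand apart were not covered by that check. DESeq2 1.42.0, other size factors, no filter, no block, a fit over all libraries of an experiment and leaving out each replicate were the alternatives. The 7 genes were named in every comparison. From each list, up to 3 called genes with the smallest p were named, or the 2 genes with the smallest p where none was called, in the glucose comparisons and in epithelial against stromal cells with vehicle. The genes and lists were chosen with earlier results of these data known. Values without the epithelial replicate 2 library alone were added after seeing the data. No sequence or coordinate is printed, since no genome of the build used was at hand here. A marker gene that the rule would name is not reported here.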

Additional observations from a re-analysis of the deposited data

How the results depend on the processing

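The 3 libraries of a group limited every comparison, and SORD, SLC6A12, AQP1 and AQP5 rested on few counts in at least 1 cell type. All 90 fold changes of the set kept their direction and their side of the threshold with other size factors and with every gene that had a count, as did all 50 in a fit over all libraries of an experiment. With DESeq2 83 of them did, and 5 passed the threshold in addition. Without the replicate block, that is without the pairing of same-numbered libraries, 85 did, 3 were lost and 2 were gained. Between the cell types at 5 mM glucose, 3 genes of the set were called, 6 with DESeq2, 5 without the block and 3 to 5 without 1 replicate. At 50 mM 3 were called, 0 without the block and 0 to 4 without 1 replicate. The difference of the glucose effects had 0 calls and 1 with DESeq2. The cause of these changes was not tested.

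The number of all genes called moved by more than 1.5 times in several comparisons. It was 0 and up to 221 (without replicate 2) for glucose in epithelial cells, and 0 and up to 178 (DESeq2) in stromal cells. With insulin it was 0 and up to 33 for 1 ng/mL over vehicle, 16 and between 0 and 78 for 10 ng/mL over vehicle, and 0 and up to 32 for 10 over 1 ng/mL in epithelial cells. In stromal cells these were 2 and between 0 and 156, 0 and up to 79, and 4 and between 0 and 165. Between the cell types at 50 mM it was 2397, 1088 without the block, 0 without replicate 1 and 3897 without replicate 3. For the differences of effects it was 0 and up to 307 (glucose) and 0 and up to 170 (insulin).

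Directions that turned when 1 replicate was left out belonged to fold changes that had not been called, and their lowest and highest log2 values follow. With glucose they were -0.013 to 0.23 for SLC6A6 and -0.29 to 0.93 for SLC38A2 in epithelial cells, and -0.28 to 0.047 for SLC6A6, -0.28 to 0.14 for SLC38A2 and -1.10 to 0.083 for AQP1 in stromal cells. In epithelial cells with insulin they were -0.061 to 0.095 for NFAT5 and -0.13 to 0.25 for SLC6A12 (1 ng/mL over vehicle), -0.078 to 0.020 for SLC6A6 (10 ng/mL over vehicle), and -0.016 to 0.70 for SORD, -0.017 to 0.10 for NFAT5 and -0.14 to 0.0013 for SLC6A6 (10 over 1 ng/mL). In stromal cells they were -0.078 to 0.037 for AQP5, -0.027 to 0.032 for NFAT5, -0.042 to 0.15 for SLC6A6 and -0.27 to 0.066 for SORD (1 ng/mL over vehicle), -0.10 to 0.064 for SLC6A6, -0.14 to 0.018 for SORD and -0.045 to 0.075 for SLC38A2 (10 ng/mL over vehicle), and -0.080 to 0.019 for NFAT5, -0.097 to 0.054 for SLC6A6, -0.0485 to 0.14 for SORD and -0.034 to 0.29 for AQP1 (10 over 1 ng/mL). For the differences of effects they were -0.24 to 1.09 for NFAT5, -0.19 to 0.69 for SORD and -0.019 to 0.28 for SLC6A6 with glucose, and -0.14 to 0.043 for SLC6A6, -2.82 to 4.45 for SLC6A12, -0.098 to 0.0079 for SLC38A2 and -0.89 to 0.044 for AQP5 with insulin.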
